A study of Sus scrofa with 80 samples.

Results

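The growth hormone and insulin-like growth factor (IGF) axis was followed through the tissues of growing Göttingen minipigs with custom one-color Agilent arrays. The axis was taken as the 10 genes IGF1, IGF1R, GHR, IGFALS and IGFBP1 to IGFBP6, looked up by symbol among the 23736 genes on the arrays. Of these 10, 7 stood under their symbol: IGF1, GHR, IGFALS, IGFBP1, IGFBP3, IGFBP4 and IGFBP6. A further 2, IGF1R (NM_214172) and IGFBP2 (NM_214003), had probes under a RefSeq accession only, and IGF1 (NM_214256) and IGFBP3 (NM_001005156) had an extra probe set under an accession. These 4 accession entries are reported beside the 7 genes and counted apart from them. IGFBP5 was not analysed here.

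The animals were untreated, and total RNA from frozen tissue blocks was measured on 80 arrays. Liver, kidney, spleen, bone marrow, cerebellum, cortex and hypothalamus were each sampled from 1 male and 1 female per age, the ages being 1 and 4 weeks and 2 and 4 months. Testis was sampled from 1 male and ovary from 1 female at each of these 4 ages. A male of 2 years gave the 7 tissues, testis and renal pelvis, with 8 repeated arrays of its kidney, which were averaged. From 74 days after birth that male was kept at another site, on other food, and it was killed with another pentobarbital product. All its arrays lay on 2 slides that held no younger sample, so the 2-year age, the site and the slides cannot be told apart. The labels do not number the animals, so tissues of 1 age and sex may come from the same animal, which the fit over 56 samples does not take into account. The male and the female of a tissue and age were used as repeats, so p-values rest on 2 animals of different sex for each age. In blocks of tissue, fewer cells of a type and less RNA per cell cannot be told apart.

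Levels are log2 intensities after background correction and quantile normalization, averaged over the probes of a gene, and levels of different genes are not comparable. Negative control spots set a detection limit on each array at their 95th percentile, which lay between 2.34 and 3.45. The kidney repeats put the technical SD between 0.02 for IGFBP2 (NM_214003) and 0.32 for IGFBP1. Marker genes bore out most tissue labels: the mean of 6 hepatocyte markers had a median of 9.20 in liver and at most 5.13 in any other tissue, and the mean of 5 kidney tubule markers had a median of 10.48 in kidney and at most 3.79 elsewhere. The 4 hypothalamic neuron markers did not set the hypothalamus apart, with a median of 7.78 there and between 7.26 and 7.69 elsewhere. At 2 and 4 months the mean of 5 testis germ cell markers reached 5.99 in cortex, 5.81 in kidney, 5.04 in liver and 4.99 in cerebellum. At 1 and 4 weeks it reached 3.98, 4.13, 4.41 and 3.81 there. In spleen it reached 4.81 at the later and 3.96 at the earlier ages, and in hypothalamus 4.77 and 3.89. In bone marrow it reached 4.05 at the later and 4.12 at the earlier ages. The cause was not tested. The bone marrow of the 2-year male stood apart from the younger marrows. Its 3 granulocyte precursor markers averaged 6.81 against 11.75 to 12.85, and its 4 adipocyte markers 12.26 against 6.08 to 9.99.

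Growth hormone from the pituitary acts through its receptor GHR, above all in liver, where it induces IGF1. IGF1 signals through the tyrosine kinase receptor IGF1R and circulates bound to IGFBP3 and the acid-labile subunit encoded by IGFALS. The other IGF-binding proteins hold the ligand in blood and tissue, and proteases that cut them release it.

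Over the ages from 1 week to 4 months the genes of the axis differed in level between tissues. IGF1, GHR, IGFALS, IGFBP3, IGFBP4 and IGFBP2 (NM_214003) all had their highest mean of the 7 tissues in liver, whereas IGF1R (NM_214172) was highest in kidney and IGFBP6 in cortex. In the test of each tissue against the mean of the other 6 (limma, Benjamini-Hochberg over 23722 genes), 37 of 49 gene and tissue pairs passed at 0.05, 13 of them higher. Over all genes 68.4% of such pairs passed and 30.7% were higher, which for 49 pairs would be 33.5 and 15, so the genes of the axis were near the arrays as a whole. The median difference of the 49 pairs was -0.36, and the medians over all genes in the 7 tissues lay between -0.11 and 0.01. With the spread of each tissue estimated on its own, 38 pairs passed (68.5% of all). Between neighbors in the order of tissues, 15 of 42 steps of the 7 genes passed. Over all genes 62.6% of the differences between any 2 tissues passed. Neighbors are by construction the closest tissues in a gene's order, so these shares are not comparable.

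**Figure D1:**
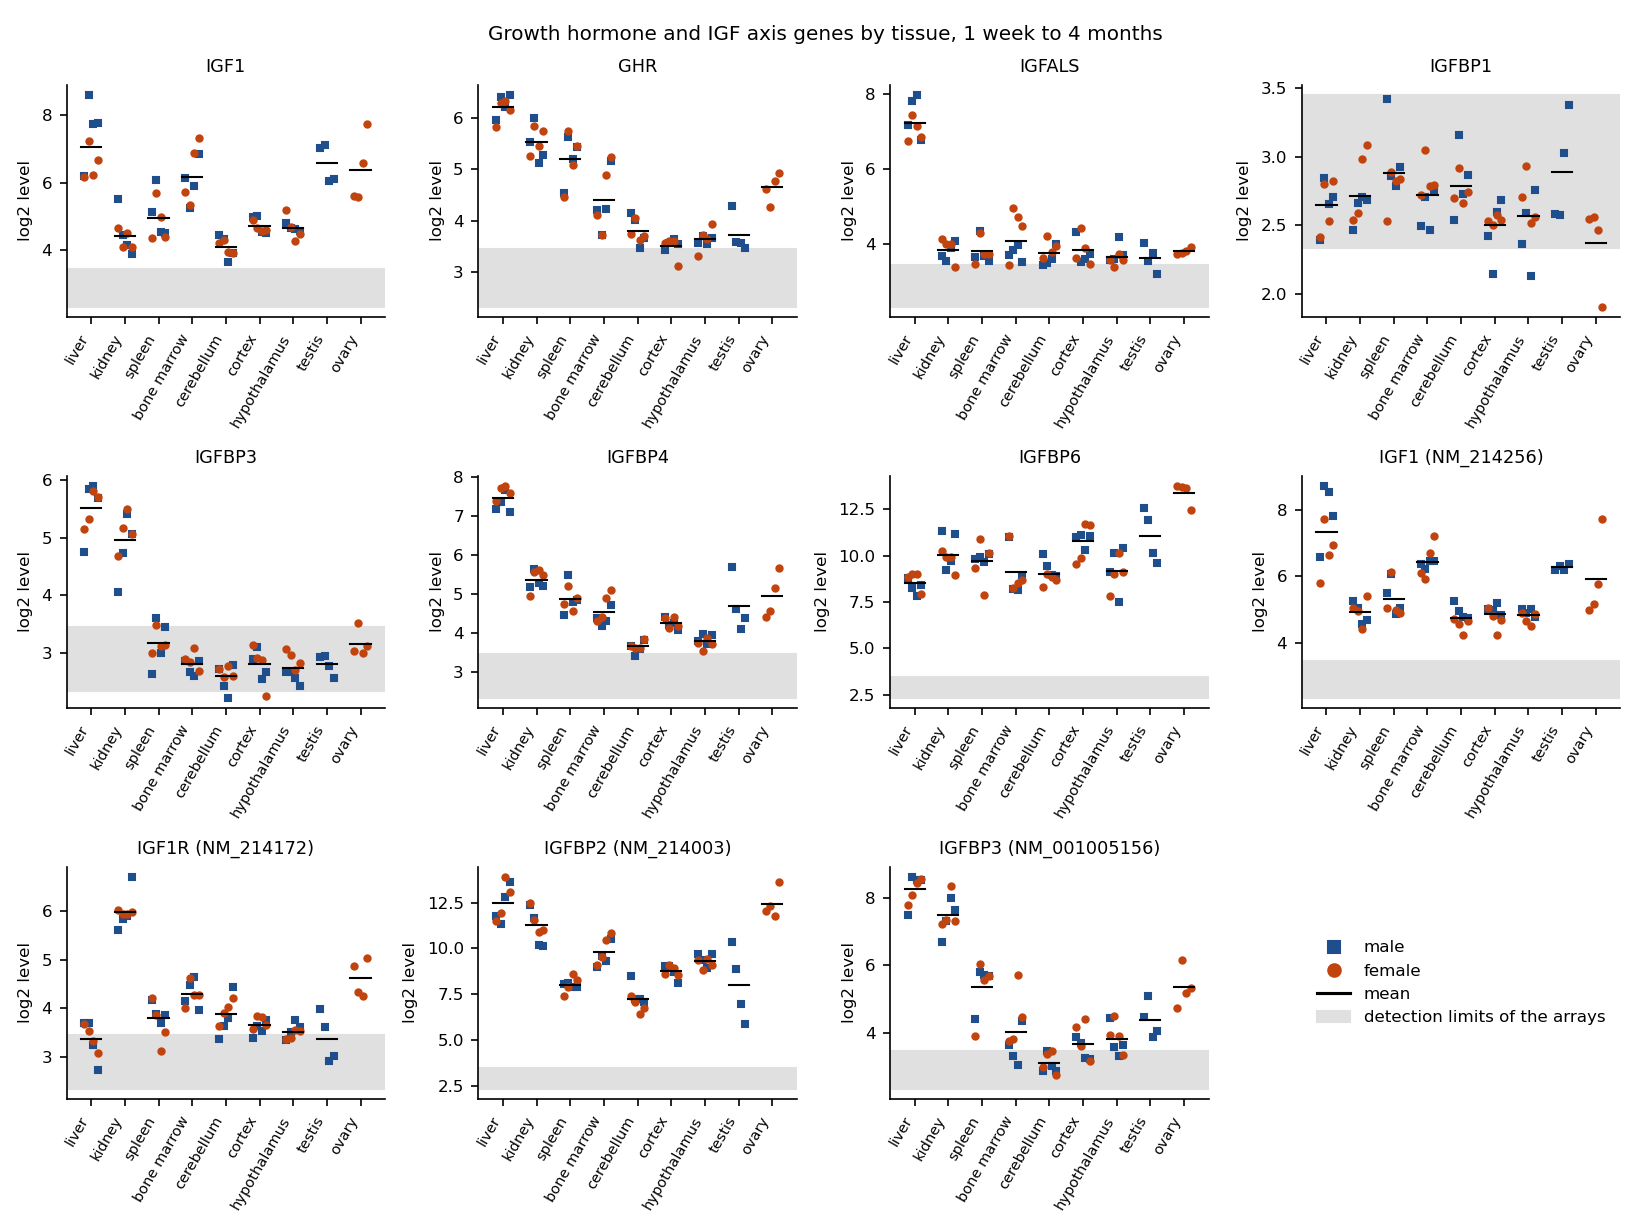
Level of each gene of the axis (log2 intensity, vertical axis) by tissue (horizontal axis), 1 point per sample from 1 week to 4 months in order of age within a tissue, with males as blue squares, females as orange circles and the mean as a black line. The grey band spans the detection limits of the arrays, 2.34 to 3.45; the liver mean is the highest of the 7 tissues sampled in both sexes for IGF1, GHR, IGFALS, IGFBP3 and IGFBP4, and IGFBP1 lies within or under the band in every sample.

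IGF1, the growth factor itself, averaged 7.06 ± 0.91 (SD, n = 8) in liver and 6.17 ± 0.76 (n = 8) in bone marrow. Next came spleen at 4.96, cortex at 4.72, hypothalamus at 4.66, kidney at 4.42 and cerebellum at 4.09. Liver exceeded bone marrow by 0.89 (limma adjusted p = 0.000136) and bone marrow exceeded spleen by 1.21 (adjusted p = 2.75e-06), while no neighbors further down that order passed. Against the mean of the other 6 tissues, IGF1 was 4.66-fold higher in liver and 2.27-fold higher in bone marrow. Outside these tissues, testis held between 6.05 and 7.11 over the 4 ages, ovary between 5.58 and 7.74, and the renal pelvis of the 2-year male 5.46. The folds and the order of the lower tissues rest in part on values near background. Probe 1 of IGF1 was well above background in all 8 samples of each of the 7 tissues. Probe 2 was so in 0 of 8 in cerebellum, cortex and kidney and in 1 of 8 in spleen and hypothalamus. Probe 3 was so in 0 of 8 in cerebellum and 3 of 8 in kidney.

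Up to 4 months, the 4-week pair had the highest mean IGF1 of the ages in liver and in spleen, and the lowest in bone marrow. In liver both animals at 1 week were low, at 6.18 in the male and 6.15 in the female. The 4-week pair stood at 8.58 and 7.24, the 2-month pair at 7.72 and 6.21, the 4-month pair at 7.75 and 6.66, and the 2-year male at 7.04. The male was above the female at all 4 ages, and the younger and older samples overlapped. In bone marrow the younger samples were 6.14 and 5.73 at 1 week and 5.25 and 5.32 at 4 weeks, and the older ones 5.89 and 6.88 at 2 months and 6.84 and 7.31 at 4 months (male then female). The 2-month male lay among the younger marrows and the other 3 older ones lay above them all, with the 2-year male at 8.06. In spleen the 4-week pair was the highest, at 6.08 and 5.68, the 1-week pair was at 5.13 and 4.37, and the samples at 2 and 4 months lay between 4.41 and 4.99. The 4 adipocyte markers, all above the limit in spleen, averaged 6.17 and 5.40 at 1 week, 6.36 and 7.10 at 4 weeks, 4.95 to 5.20 later and 4.74 at 2 years, and their part in the spleen values was not tested.

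In bone marrow the older samples exceeded the younger by 1.12 (SE 0.31, 2.17-fold), which did not pass within that tissue (limma adjusted p = 0.149). The same difference stood 1.50 (SE 0.29) above the mean age difference of the other 6 tissues, which passed (adjusted p = 0.000651) and also passed with the spread of each tissue estimated on its own (adjusted p = 0.0132). All 18 alternatives kept this call, with differences between 0.81 and 1.88. Of all genes, 10.5% passed that test in bone marrow. For 4 months against 1 week, IGF1 passed in the fit over 56 samples in bone marrow (1.14) and kidney (-1.09), where 13.1% of all pairs did. Neither passed with the spread of each tissue estimated on its own (limma adjusted p of 0.127 and 0.0604). A test for any difference among the 4 ages, added after the data were seen, passed for IGF1 in spleen (limma adjusted p = 0.0187), where 36.9% of all genes did. In the 3 brain regions every sample at 2 and 4 months lay under every younger one, by 0.46 in cerebellum, 0.33 in cortex and 0.34 in hypothalamus on average. None of these 3 passed (limma adjusted p of 0.064, 0.131 and 0.491). Over all genes and the 7 tissues, 12% of pairs did not overlap between older and younger samples. The second entry, IGF1 (NM_214256), did overlap in all 3 regions. Its older samples reached 4.78 in cerebellum, 5.18 in cortex and 5.02 in hypothalamus, and its younger ones went down to 4.57, 4.81 and 4.66.

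The accession entry IGF1 (NM_214256), whose 2 probes carry the array's cross-hybridization mark in their names, followed a similar order of tissues, with 7.35 ± 1.02 (SD, n = 8) in liver and 6.43 ± 0.40 in bone marrow. Its bone marrow samples did not overlap between the older (6.45 to 7.21) and younger ages (5.92 to 6.38), yet the difference of 0.55 did not pass (limma adjusted p = 0.252). In spleen it was highest at 4 weeks, at 6.07 and 6.13, and the difference among the 4 ages passed (adjusted p = 0.00462). In liver the 2-year male had 9.01, the highest value of the entry in any sample, whereas the symbol entry had 7.04 there, within its range in younger livers. For 4 months against 1 week the accession entry passed in liver in the fit over 56 samples (1.19). It did not pass with the spread of liver alone (limma adjusted p = 0.347).

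GHR, the growth hormone receptor, descended from liver at 6.20 ± 0.22 (SD, n = 8) to kidney at 5.53 ± 0.31, spleen at 5.19 ± 0.47 and bone marrow at 4.41 ± 0.60. Each of these steps passed, as did the step to cerebellum at 3.81, whereas cerebellum, hypothalamus (3.64) and cortex (3.52) did not differ from their neighbors. Against the other 6 tissues GHR was 3.61-fold higher in liver, 2.09-fold in kidney and 1.60-fold in spleen. Ovary lay between 4.27 and 4.94, and testis between 3.48 and 4.28.

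These GHR levels are means of 2 probes that disagreed. The first was not well above background on any of the 56 arrays of the 7 tissues up to 4 months, with tissue means from 2.05 to 2.43. The other probe was well above background on all of them, with a mean of 10.04 in liver, 8.63 in kidney, 8.02 in spleen and 6.78 in bone marrow. The averaged log2 values therefore understate a change seen by the brighter probe, and leaving out probes that never rose above background was added as an alternative after the data were seen. In that alternative GHR stood above the other 6 tissues by 3.61 in liver, 1.97 in kidney and 1.26 in spleen on the log2 scale, against 1.85, 1.07 and 0.67 in the averaged values. Bone marrow then stood at -0.19 against the other 6, and its call was lost (limma adjusted p = 0.229).

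**Figure D2:**
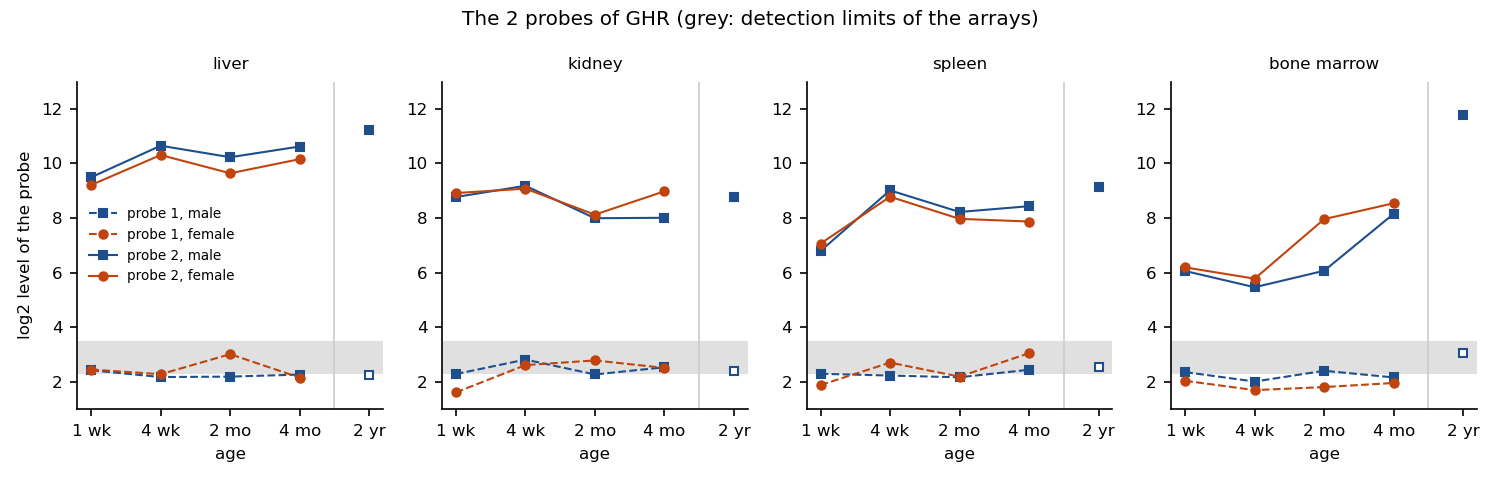
Level of the 2 GHR probes (log2 intensity, vertical axis) by age (horizontal axis) in liver, kidney, spleen and bone marrow, with males as blue squares, females as orange circles, probe 1 dashed and probe 2 solid, and the 2-year male as a lone point. Probe 1 lies in or under the grey band of detection limits throughout, while within spleen probe 2 is lowest at 1 week and within bone marrow it is highest at 2 years.

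Bone marrow and spleen gave the clearest age differences of the receptor. Bone marrow GHR was 4.21 and 4.11 at 1 week, 3.74 in both animals at 4 weeks, 4.24 and 4.88 at 2 months and 5.16 and 5.25 at 4 months (male then female). No older sample overlapped a younger one, and the 2-year male stood far above them at 7.40. The difference was 0.93 within bone marrow (SE 0.24, limma adjusted p = 0.122), which did not pass. It stood 0.97 (SE 0.13) above the age difference of the other 6 tissues (adjusted p = 4.06e-06, and 0.0193 with the spread of each tissue), and all 18 alternatives kept that call. Without the dark probe the excess over the other tissues was 1.91 (limma adjusted p = 1.37e-05), and 4 months exceeded 1 week by 2.22 (adjusted p = 4.36e-05). In the averaged values 4 months exceeded 1 week by 1.04, which passed in the fit over 56 samples. It did not pass with the spread of bone marrow alone (limma adjusted p = 0.062).

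In spleen GHR was 4.54 and 4.47 at 1 week, 5.62 and 5.74 at 4 weeks, 5.19 and 5.08 at 2 months and 5.44 and 5.46 at 4 months. Only the 1-week pair was low, and the 2-year male had 5.84. The level at 4 months was 1.92-fold that at 1 week (log2 difference 0.94, SE 0.18, limma adjusted p = 5.9e-05), a contrast in which 32.9% of all genes passed in spleen. It also passed with the spread of spleen alone (adjusted p = 0.00147), and was lost only with the authors' value table (difference 0.57, adjusted p = 0.0636). Without the dark probe the difference was 1.23 (limma adjusted p = 0.00905). The 5 erythroid markers moved the other way in the same samples, with means of 9.58 and 9.47 at 1 week and 7.09 to 7.76 at the later ages up to 4 months, and the 3 granulocyte precursor markers likewise (10.54 and 9.66, then 5.88 to 7.60). Their part in the spleen values was not tested.

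In the averaged values liver GHR moved little, from 5.96 and 5.83 at 1 week to between 6.15 and 6.44 at the later ages. It reached 6.73 in the 2-year male. Without the dark probe, liver at 4 months exceeded 1 week by 1.04, which did not pass (limma adjusted p = 0.0533). The older livers then exceeded the younger by 0.25 (adjusted p = 0.748). Kidney GHR was highest at 4 weeks (6.00 and 5.84). Its age difference lay 0.42 under that of the other tissues (limma adjusted p = 0.0357), but not with the spread of kidney itself (adjusted p = 0.151). Without the dark probe it lay 1.03 under (-1.03, limma adjusted p = 0.0139). The kidney call was lost in 9 of 18 alternatives, among them median scaling, slide as a covariate (-0.38, adjusted p = 0.277) and leaving out either animal of 1 or 4 weeks or the male of 2 or 4 months, with values between -1.03 and -0.29 over all of them. In cerebellum the older samples (3.47 to 3.71) lay under the younger ones (3.75 to 4.15), 0.55 further down than in the other tissues (limma adjusted p = 0.0144, and 0.0241 with the spread of each tissue), where 3.63% of all genes passed. That cerebellar call was lost in 8 of 18 alternatives, among them an offset of 50 (-0.22, adjusted p = 0.206), the GHR values without the dark probe (-0.78, adjusted p = 0.124) and the authors' value table (-0.30, adjusted p = 0.422). It was also lost without the 1-week male, the 4-week male or the 4-week female.

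**Figure D3:**
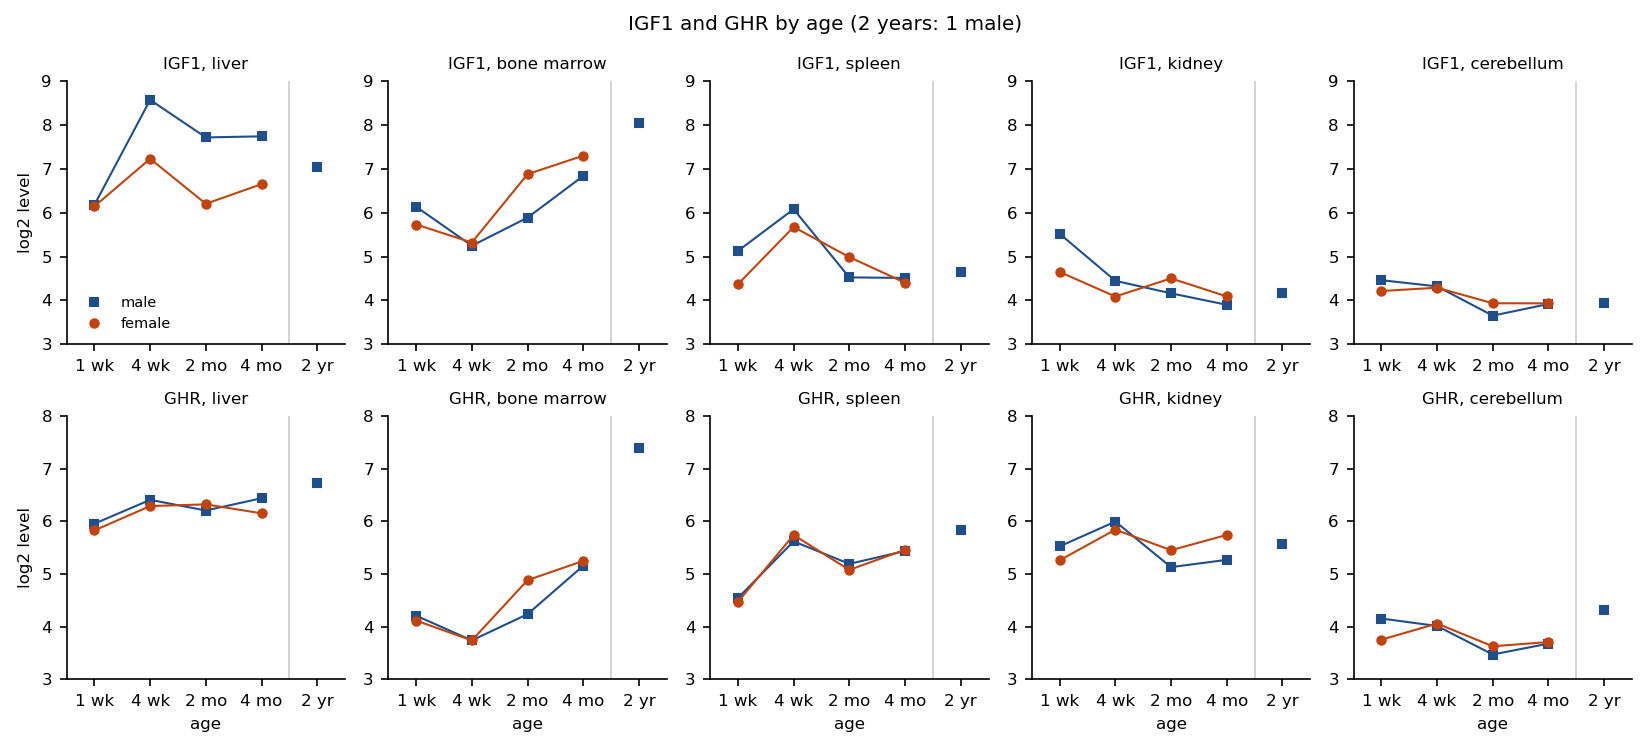
Level of IGF1 (top row) and GHR (bottom row; log2 intensity, vertical axes) by age (horizontal axes) in 5 tissues, with males as blue squares, females as orange circles, lines joining the ages up to 4 months and the 2-year male right of the grey line. Liver IGF1 is higher in the male from 4 weeks to 4 months, spleen GHR is low at 1 week alone, and both genes are higher in bone marrow at 4 months than at 4 weeks.

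IGF1R (NM_214172), the IGF1 receptor, was read by 2 probes with the cross-hybridization mark, and it was well above background in all 8 kidney and all 4 ovary samples. Kidney values ran 5.62 and 6.01, 5.83 and 5.93, 5.91 and 5.94, then 6.70 and 5.98 from 1 week to 4 months (male then female). They were flat apart from the 4-month male. Against the other 6 tissues, of which liver, cortex and hypothalamus had no probe well above background, kidney stood at least 4.6-fold higher (measured log2 difference 2.25, SE 0.08, limma adjusted p = 1.14e-23). Ovary held between 4.25 and 5.04, and the renal pelvis of the 2-year male 5.72. In liver no probe was well above background on any array, with levels of 3.53 to 3.69 in younger and 2.72 to 3.31 in older samples, so no fold is given there. In cerebellum the receptor was at least 1.77-fold higher at 4 months (4.43 and 4.20) than at 1 week (3.36 and 3.63; limma adjusted p = 0.00653, and 0.0283 with the spread of cerebellum, where 8.15% of all genes passed in the shared fit). This was lost with an offset of 50 (0.20, limma adjusted p = 0.0789) and without the 1-week male (0.68, adjusted p = 0.212) or the 4-month male (0.71, adjusted p = 0.054).

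IGFALS, the acid-labile subunit, separated liver from every other tissue. Its 8 liver samples lay between 6.73 and 7.96 and all others of the 7 tissues between 3.38 and 4.95, a 10.5-fold difference from the mean of the other 6 (log2 difference 3.40, SE 0.13, limma adjusted p = 2.91e-22). No sample of another tissue reached the liver range. Outside liver, a probe was well above background in all 8 bone marrow samples, 6 of 8 of kidney and cortex, 5 of spleen and hypothalamus and 4 of cerebellum. The fold therefore rests in part on values near background. Liver IGFALS showed no order by age: the 4-week male (7.81) and the 2-month male (7.96) were the highest, and the 2-year male had 7.41. In spleen, at levels of 3.47 to 4.34, the 4-week pair was highest (4.34 and 4.29). Any difference among the 4 ages passed there (limma adjusted p = 0.0163), where 36.9% of all genes did. A probe was well above background in all 4 younger spleens but in only 1 of the 4 older ones.

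IGFBP3, the main carrier of IGF1 in blood, shared the liver and kidney pattern in both probe sets. The symbol entry, whose 2 probes carry the cross-hybridization mark, was at least 4.18-fold higher in liver (5.53 ± 0.41, SD, n = 8) and at least 2.65-fold higher in kidney (4.96 ± 0.47) than in the other 6 tissues. Outside liver and kidney it was not well above background in any of the 7 tissues, which enter these bounds at the lowest level well above background. For 4 months against 1 week this entry passed in the shared fit in liver (0.74, limma adjusted p = 0.0189) and kidney (0.69, adjusted p = 0.0288). Its age difference against the other 6 tissues also passed in liver (0.51, adjusted p = 0.0431) and kidney (0.62, adjusted p = 0.0134). None of these 4 passed with the spread of each tissue (limma adjusted p of 0.122, 0.123, 0.141 and 0.0687). The accession entry, whose probes carry the array's mark for specific probes, was at least 12.6-fold higher in liver and at least 6.81-fold higher in kidney, with cerebellum not well above background. In liver that entry was 7.49 and 7.77 at 1 week, 8.61 and 8.07 at 4 weeks and 8.45 to 8.55 later, with 8.95 in the 2-year male. Its older minus younger difference of 0.53 in liver did not pass (limma adjusted p = 0.253), nor did 0.68 in kidney (adjusted p = 0.100). In spleen the 1-week pair alone was low (4.41 and 3.90, against 5.56 to 6.04 at all later ages up to 4 months). There 4 months was 2.86-fold above 1 week (limma adjusted p = 0.0062, and 0.000817 with the spread of spleen), where 32.9% of all genes passed. Leaving out the 1-week female or either 4-month animal ended that call, with an adjusted p of at most 0.119. The erythroid and granulocyte precursor markers given with GHR were measured in these same spleens, and their part was not tested.

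IGFBP4, an inhibitory binding protein cut by the protease PAPPA, was at least 8.38-fold higher in liver (7.48 ± 0.25, SD, n = 8) than in the other 6 tissues, of which hypothalamus and cerebellum were not well above background. Kidney (5.37), spleen (4.87), bone marrow (4.54), cortex (4.25) and hypothalamus (3.79) followed, each step passing. In bone marrow it stood at 4.39 and 4.30 at 1 week and at 4.73 and 5.11 at 4 months, a difference of 0.58 that passed in the shared fit (limma adjusted p = 0.0292) but not with the spread of bone marrow (adjusted p = 0.265). The 2-year marrow had 6.34. Testis went from 5.69 at 1 week to between 4.10 and 4.63 afterwards, and ovary from 4.41 and 4.58 at the younger ages to 5.17 and 5.67 at the older.

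IGFBP1, known from other settings as an insulin-regulated product of liver, was not well above background in any sample of the 7 tissues, liver included. Its levels there lay between 2.13 and 3.42, at or near the detection limit. A single probe rose well above background in the testis at 4 months (gene level 3.38) and in the renal pelvis at 2 years (2.83).

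IGFBP2 (NM_214003), a binding protein abundant in fetal and early life, was the one entry of the 11 whose older and younger samples differed past the threshold within a tissue. In liver it was 11.76 and 11.52 at 1 week and 11.34 and 11.91 at 4 weeks, then 12.82 and 13.90 at 2 months and 13.61 and 13.11 at 4 months (male then female), with 12.70 in the 2-year male. In kidney it ran the other way, from 12.39 and 12.48 at 1 week over 11.66 and 11.58 at 4 weeks to 10.19 and 10.89 at 2 months and 10.13 and 11.01 at 4 months, with 10.42 at 2 years. Neither tissue had an older sample that overlapped a younger one.

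Liver IGFBP2 was 3.31-fold higher at the older ages (log2 difference 1.73, SE 0.24, limma adjusted p = 0.0144), where 1.8% of all genes passed. Kidney IGFBP2 was 2.78-fold lower (-1.47, SE 0.28, adjusted p = 0.017), where 8.41% passed. The liver call was lost without the 1-week female or the 4-month male, and the kidney call without either 1-week animal, the 2-month male or the 4-month male, with adjusted p of at most 0.0613 and 0.0573. Set against the other 6 tissues, the age difference was 1.94 higher in liver and 1.80 lower in kidney (adjusted p = 1.97e-05 and 8.76e-05, where 12.1% and 12.3% of all genes passed), and all 18 alternatives kept both calls. The 6 hepatocyte markers averaged 8.97 to 9.23 in younger and 8.97 to 9.77 in older livers, and the 5 kidney tubule markers 10.38 to 10.60 in every kidney up to 4 months. The 4 proliferation markers were lower at the older ages in both organs: 5.20 to 5.93 and then 3.39 to 4.40 in liver, and 4.55 to 5.88 and then 3.46 to 4.38 in kidney. In liver the granulocyte precursor markers went from 7.04 to 9.53 in younger to 6.09 to 6.59 in older samples, and the endothelium markers from 7.41 to 7.57 to 6.83 to 7.18, without overlap. Erythroid markers (6.52 to 8.05, then 6.32 to 6.64) and bone and fibroblast markers (6.06 to 6.40, then 5.29 to 6.07) overlapped in liver. In kidney, bone and fibroblast markers (6.03 to 6.84, then 5.54 to 6.08), adipocyte markers (5.50 to 6.44, then 5.29 to 5.56) and endothelium markers (7.06 to 7.60, then 6.76 to 7.35) overlapped. The part of these lists in the IGFBP2 values was not tested.

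**Figure D4:**
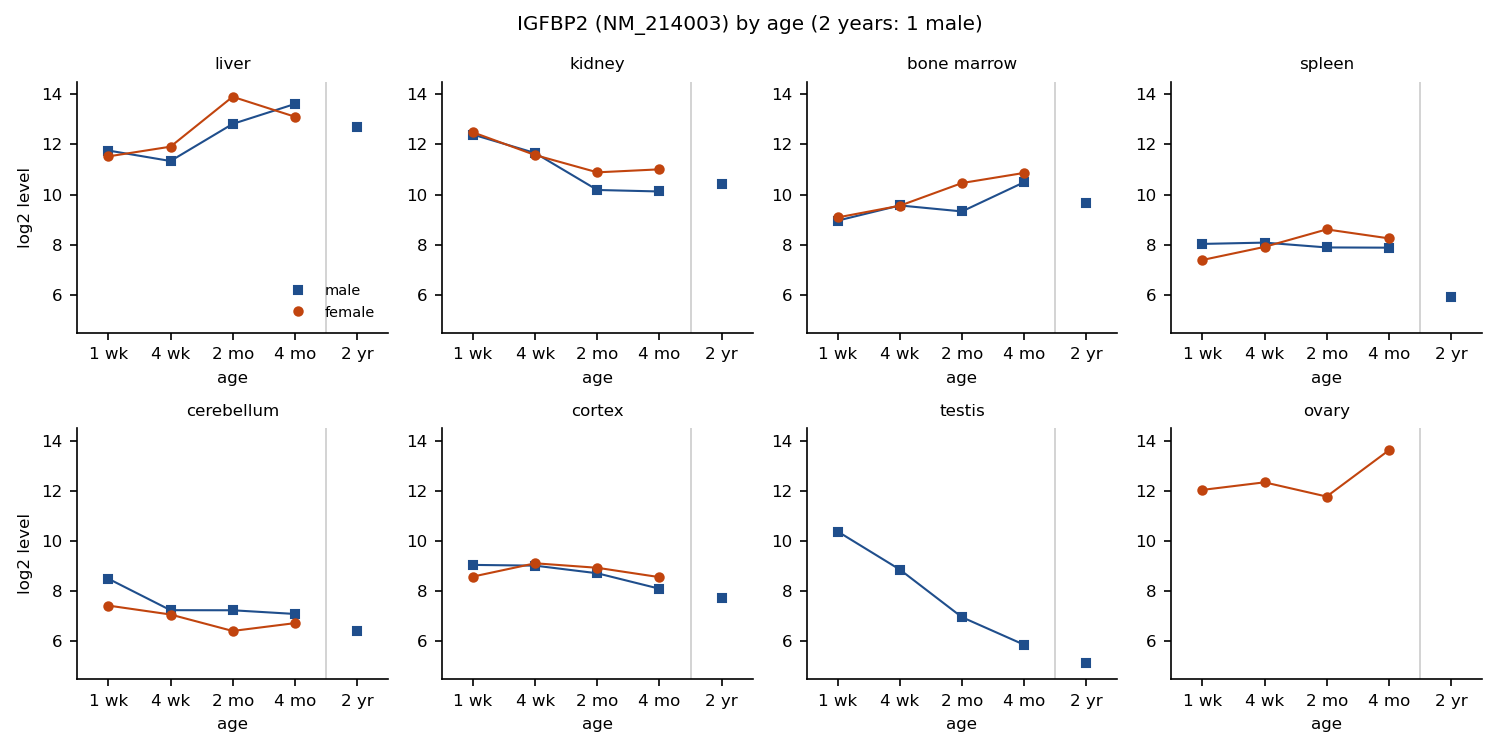
Level of IGFBP2 (NM_214003; log2 intensity, vertical axes) by age (horizontal axes) in 8 tissues, with males as blue squares, females as orange circles, lines joining the ages up to 4 months and the 2-year male right of the grey line. Values are higher from 2 months on in liver (12.82 to 13.90 against 11.34 to 11.91), lower in kidney (10.13 to 11.01 against 11.58 to 12.48), and go from 10.38 to 5.14 in testis.

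In bone marrow IGFBP2 stood at 8.97 and 9.09 at 1 week and at 10.50 and 10.87 at 4 months, 3.14-fold higher (limma adjusted p = 0.00241, and 0.0496 with the spread of bone marrow). The 2-year marrow had 9.66. The testis series was the steepest by value, from 10.38 in the 1-week and 8.86 in the 4-week male to 6.97 in the 2-month, 5.87 in the 4-month and 5.14 in the 2-year male, with 1 male at each age and without a test. Germ cell markers (5 genes) averaged 4.80 and 5.43 in the first 2 of these testes and 12.19 to 12.37 in the later 3, and bone and fibroblast markers (7 genes) 6.97 and 6.64, then 4.98 to 5.47. Their part was not tested. In ovary IGFBP2 lay between 11.77 and 13.61, highest at 4 months.

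IGFBP6, which binds IGF2 in preference to IGF1, was well above background in every sample. Cortex had the highest mean of the 7 (10.78), 2.87-fold above the other 6, and liver the lowest (8.51), but no step between neighbors passed. Values within a pair of the same age differed widely in several tissues: hypothalamus had 7.49 in the male and 10.12 in the female at 2 months, and 10.15 and 8.98 at 4 weeks. The SD of male minus female over the 4 ages was 1.95 in hypothalamus, 1.41 in cortex, 1.32 in kidney and 1.17 in spleen. It was 0.79 in cerebellum, 0.75 in liver and 0.25 in bone marrow. Ovary had between 13.62 and 13.74 up to 2 months and 12.48 at 4 months, and testis went from 12.54 at 1 week to 9.59 at 4 months.

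Bone marrow gave the clearest age pattern of IGFBP6. Both 1-week marrows were high (11.00 and 11.06), and all 6 marrows from 4 weeks to 4 months lay between 8.16 and 8.95, with 10.56 in the 2-year male. The level at 4 months was 4.64-fold under that at 1 week (log2 difference -2.21, limma adjusted p = 0.036, and 0.00187 with the spread of bone marrow, where 3.3% of all genes passed). The call was lost with slide as a covariate (-1.75, adjusted p = 0.224) and without any 1 of the animals of 1 week, 4 weeks or 4 months. Over all alternatives the values lay between -2.51 and -1.75. A difference among the 4 ages passed (adjusted p = 0.00143). Bone and fibroblast markers (7 genes, 6 of them above the limit) averaged 9.46 and 9.11 in the 1-week marrows, 6.42 to 8.39 in the later ones up to 4 months and 9.58 at 2 years.

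The 4 adipocyte markers, all above the limit in every marrow, averaged 6.08 to 6.74 at the younger ages, 7.29 and 9.25 at 2 months, 9.21 and 9.99 at 4 months and 12.26 at 2 years. The 4 marrows with the highest adipocyte mean also had the 4 highest values of IGF1 and of GHR. The part of either marker list in the marrow values was not tested.

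**Figure D5:**
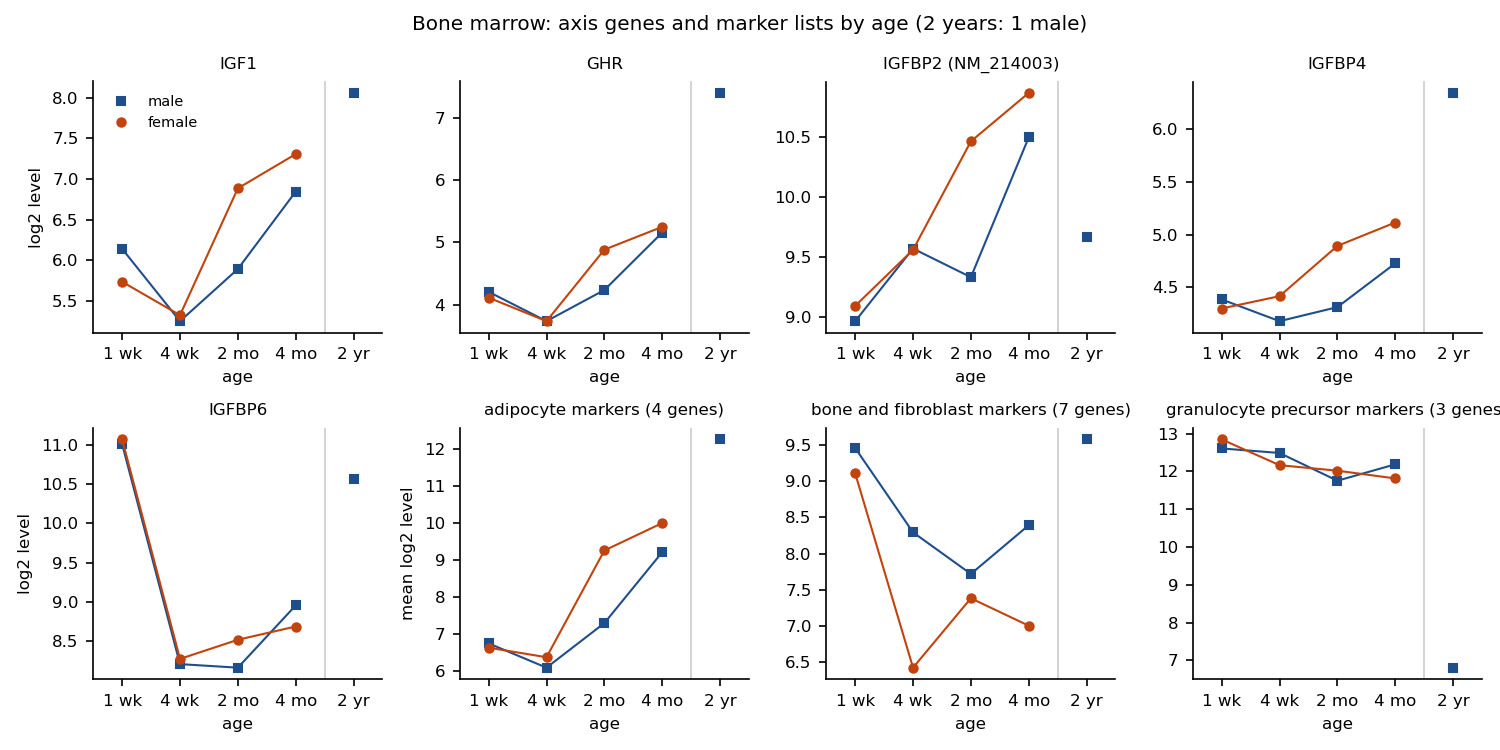
Bone marrow by age (horizontal axes): level of 5 genes of the axis (log2 intensity) and the mean level of adipocyte, bone and fibroblast, and granulocyte precursor markers (mean log2 intensity), with males as blue squares, females as orange circles and the 2-year male right of the grey line. IGF1, GHR and the adipocyte markers are highest at 2 years (8.06, 7.40 and 12.26), and IGFBP6 is high at 1 week and 2 years.

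Counted over the 7 genes and 7 tissues, older against younger samples gave 0 of 49 pairs past the threshold within tissues (limma), where 2.58% of all such pairs passed. The alternatives gave between 0 and 5 pairs past the threshold. At an unadjusted p under 0.05 there were 11, where 18.5% of all pairs were. Older and younger samples did not overlap in 8 of 49 pairs, 3 higher and 5 lower, and in 12% of all pairs on the arrays, which would be 5.88 of 49. The higher pairs were GHR in bone marrow and IGFBP1 in cortex and kidney, and the lower ones included IGFBP3 in cortex. For these IGFBP1 and IGFBP3 pairs no sample had a probe well above background, so the count rests in part on values near background. The median of the 49 differences was -0.01, and the medians over all genes in each tissue lay between -0.01 and 0.03. Among the 28 pairs of the accession entries 2 passed, both of IGFBP2. From 1 week to 4 months 8 of 49 passed, 6 higher, where 13.1% of all pairs did and 6.59% were higher, which would be 6.41 and 3.23 of 49. The median of these 49 differences was 0.11, against medians over all genes from -0.0022 to 0.0412. With the spread of each tissue the 2 that passed were GHR in spleen and IGFBP6 in bone marrow (8.64% of all). Against the other 6 tissues 7 of 49 age differences passed, 5 higher, where 8.91% of all did and 4.64% were higher, which would be 4.36 and 2.27 of 49, and 4 passed with the spread of each tissue (7.04%). The test for any difference among the 4 ages passed in 5 of 49 pairs, where 7.83% of all did, or 3.84 of 49. These were GHR, IGF1, IGFALS and IGFBP4 in spleen and IGFBP6 in bone marrow. In spleen alone 36.9% of all genes passed this test.

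The sexes were compared in 28 pairs of the same tissue and age. None of the 7 genes passed (limma), none had an unadjusted p under 0.05, and every alternative gave 0, while 0.261% of all genes passed. IGF1 (NM_214256) was higher in the male in 21 of 28 pairs, by 0.28 on average (adjusted p = 0.311). In liver alone the male minus female difference was 1.00 for IGF1 (SE 0.25, adjusted p = 0.732) and 1.14 for IGF1 (NM_214256; SE 0.21, adjusted p = 0.732), with the male higher at 4 of 4 ages in both. Compared with the mean sex difference of the other 6 tissues, it was 1.01 larger for IGF1 (NM_214256; adjusted p = 0.0263, where 0.379% of genes passed in liver) and 0.97 larger for IGF1 (adjusted p = 0.0733). The tests by tissue were added after the data were seen, and with 1 male and 1 female at each age sex and animal cannot be told apart.

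Other genes of the pathway were read from a list of 48, of which 41 were on the arrays. From the younger to the older ages 2 rose and 5 fell in kidney, where 8.41% of all genes passed (limma), and 0 rose and 2 fell in liver, where 1.8% passed. The median change of the 41 was 0.01 in kidney and -0.04 in liver, against 0.02 over all genes in either tissue. SOCS3, a feedback inhibitor of cytokine receptors including GHR, rose in kidney by 1.45 (SE 0.25, limma adjusted p = 0.0121), a call that all 19 alternatives kept. STC1, a stanniocalcin that inhibits the protease PAPPA, rose there by 0.89 and STC2, the other stanniocalcin, fell by 0.71. IGF2R, which clears IGF2, fell in kidney by 0.81, and HTRA1, a protease that cuts IGF-binding proteins, fell by 1.15. GRB10, an adaptor that dampens insulin and IGF1 receptors, fell by 0.98 in liver (SE 0.15, adjusted p = 0.0222) and by 0.73 in kidney. IGFBP7, a binding protein of low IGF affinity, fell by 1.30 in kidney and from a mean of 12.22 to 11.12 in liver. Outside these organs 3 calls were made, named here after their values were seen: GRB10 fell by 1.01 and SSTR5, a somatostatin receptor, rose by 0.70 in cerebellum (2.27% of all genes), and FOXO3, a transcription factor restrained by insulin and IGF1 signaling, fell by 1.29 in spleen (3.09%). Bone marrow, cortex and hypothalamus had 0 calls of 41, with 6, 15 and 6 genes at an unadjusted p under 0.05, where 14.4%, 18.6% and 9.54% of all genes were. Of these 12 calls the 11 other than SOCS3 were lost without the 1-week male, and under between 2 and 13 of 19 alternatives each, with adjusted p of at most 0.697.

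As a description over all 72 tissue samples, which share tissues and may share animals, the 3 named genes most like each member were taken by Pearson r. For IGFALS these were CYP1A2 (0.956), PRHOXNB (0.956) and SERPIND1 (0.955), for IGFBP3 SERPINF2 (0.964), DPYS (0.957) and HAO1 (0.954), and for IGFBP4 TLR5 (0.944), HAPLN3 (0.93) and PGLYRP2 (0.926). GHR was most like SCARF1 (0.899), MKNK1 (0.885) and EPHA2 (0.874). For IGF1 the values were lower, with GUSB (0.795), CREB3L4 (0.794) and CTSL1 (0.778), as for IGFBP6 with PDZRN3 (0.766), HTRA3 (0.766) and KANK4 (0.734). IGFBP1 had no close match, with NUP210L (0.542), ADORA3 (0.536) and LRIF1 (0.528).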

How the data were processed

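The authors deposited the Agilent Feature Extraction 11.5.1.1 output of each array (version per the labels), with the raw median intensity of each spot, a processed intensity and flags such as well above background, and a value table of normalized log2 values (median 4.57 per array). Per the study's methods the array was designed from the predicted minipig transcriptome and pig RefSeq mRNAs. Here raw median intensities without flagged spots (10 to 590 per array) were corrected by normexp (offset 0) and quantile-normalized in limma 3.58.1 (R 4.3.3), and log2 values of spots, probes and genes were averaged. Of 23736 genes 23722 had a value on every array. Median gene intensity was 27 to 89 per array against 17 to 25 for negative controls, so weak genes lie near background, and the number of arrays limits the precision.

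Fits used limma with Benjamini-Hochberg adjustment over all genes at 0.05. Samples at 2 and 4 months were set against 1 and 4 weeks within each tissue (4 against 4). The contrasts of 4 months with 1 week, of a tissue's age difference or level with the other 6, and the orders of tissues came from 1 fit of 28 tissue and age groups over 56 samples. That fit shares the spread of all tissues, and simulated data showed too many calls where tissues differ in spread, so the spread of each tissue was added as an alternative after seeing the data. The fit with sex as a replicate block was the other alternative; same-sexed samples of a tissue correlated between -0.23 and 0.35 in their deviations, so they were not treated as paired.

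The 10 genes, the pathway and marker lists and the tests were chosen with earlier results of these data known. Named genes were the members, pathway genes past the threshold in the age change, and the 3 genes most like each member by Pearson r. Accessions were named through RefSeq's pig gene table (3022 of 10822 matched). At most 1 sample of a tissue lay on a slide, so no value within a slide could be had. A gene was called not above background where no probe was well above it, and "at least" folds use each array's lowest value well above background.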

Additional observations from a re-analysis of the deposited data

Results flagged for a closer look

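Among 154 groups of 4 samples (a gene, a tissue and the younger or older ages), 5 held a sample far from the other 3, and chance flags about 1 in 20 groups. IGF1 was 3.65 in the 2-month male cerebellum, against 3.92 to 3.94 in the other samples at 2 and 4 months. IGF1R (NM_214172) was 6.70 in the 4-month male kidney, against 5.91 to 5.98. IGFALS was 3.38 in the 4-week female hypothalamus, against 3.57 to 3.60 at 1 and 4 weeks. IGFBP1 was 2.47 in the 2-month male bone marrow, against 2.76 to 2.79, all of them under that array's detection limit of 3.02. IGFBP3 (NM_001005156) was 4.41 in the 2-month female cortex, against 3.16 to 3.26.

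The age difference (2 and 4 months minus 1 and 4 weeks) departed from that of the other 6 tissues, by limma and also with the spread of each tissue, for GHR in bone marrow (0.97) and cerebellum (-0.55) and IGF1 in bone marrow (1.50). The same held for IGFBP2 (NM_214003) in liver (1.94) and kidney (-1.80), and for IGF1R (NM_214172) in cerebellum (0.57), spleen (-0.57) and liver (-0.65), where in liver no probe was well above background. For IGF1R (NM_214172) the difference in cerebellum was lost in 9 of 18 alternatives, among them leaving out the 1-week, 4-week or 2-month female or the 1-week, 4-week or 4-month male (0.12 to 0.88 over all alternatives). In spleen it was lost without the 2-month female and with an offset of 50, and in liver with an offset of 50 and the processed signal (-0.99 to -0.15 and -0.79 to -0.13). Male minus female of IGF1 (NM_214256) in liver exceeded that of the other 6 tissues by 1.01.

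In samples that enter no comparison, IGFBP1 had 1 probe well above background in the testis at 4 months (gene level 3.38) and in the renal pelvis of the 2-year male (2.83).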

How the results depend on the processing

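Of the 49 pairs, the number past the threshold for older against younger samples was 0, and became 1 with an offset of 50, 1 with the authors' value table, 2 with slide as a covariate, 5 with the 28 groups fitted together, 5 for any difference among the 4 ages and 0 to 2 with 1 sample left out. For 4 months against 1 week it was 8, and 4 with slide, 2 with the spread of each tissue and 2 to 9 with 1 sample left out. For a tissue's age difference against the other 6 it was 7, and 4 with the processed signal, 3 with slide, 4 with the spread of each tissue and 2 to 6 with 1 sample left out. Levels by tissue kept 34 to 39 of 49 against 37. Taking sex as the replicate block gave 0, 8, 7 and 37, so the block moved none of these counts, although it ended 6 of the 12 calls of other pathway genes. A level against the other 6 tissues turned its sign for IGFBP1 in liver (0.23 with median scaling, 0.26 with the processed signal) and spleen (-0.0688 with the processed signal), for IGFBP4 and IGFBP3 (NM_001005156) in spleen (-0.12 and -0.17 with an offset of 50) and for IGFALS in bone marrow (0.40 with the authors' value table). The cause was not tested. Weak genes near background, 2 animals for each age and the 2-year male on its own slides limit these values.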
